A study of Mus musculus with 49 samples.

Results

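Of the 38253 Ensembl genes in the deposited expression table, 9 are described here: *Gata1*, *Klf1*, *Epor*, *Zfpm1*, *Tal1*, *Lmo2*, *Nfe2*, *Gfi1b* and *Fli1*. They were chosen by name as regulators of the erythroid and megakaryocyte lineages, and their Ensembl identifiers were paired with symbols through GENCODE M1, which annotates the mouse assembly NCBIM37 (mm9). All 9 were found. RNA sequencing had been done on 49 samples in 10 groups from female C57BL/6J mice aged 6 to 12 weeks, labelled as wild type and as bone marrow. The 30 normal samples had been sorted by surface antigens. MEP, the megakaryocyte-erythrocyte progenitors, gave 4 samples, and CMP and GMP, the common myeloid and the granulocyte-macrophage progenitors, gave 5 each. LT-HSC and ST-HSC, stem cells of long-term and of short-term repopulating ability, gave 5 samples each, and MPP, the multipotent progenitors, gave 6. The antigens that define MEP were not given in the sources used here. The leukaemias were bulk cells that had been transduced with a retrovirus carrying the MLL-AF9 fusion (MA9) and GFP and transplanted at once into irradiated recipients, and they were named for the population transduced. There were 6 GMP:MA9 samples, 6 of MPP:MA9, 4 of CMP:MA9 and 3 of STHSC:MA9, and nothing in the labels says which arose in one experiment, so p-values measure the spread between these samples. No leukaemia started from MEP was analysed here, and the normal cells carried no virus. According to the study's methods leukaemic cells were sorted by GFP from the spleen, of recipients taken when ill after transplantation. The age of these mice at harvest was not given. Fusion, culture with virus, transplantation, organ of harvest and age at harvest therefore cannot be told apart in a comparison of leukaemia with normal cell.

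GATA1 is the zinc-finger factor that red cell, megakaryocyte, mast cell and eosinophil development depend on, and FOG1, the product of *Zfpm1*, is the cofactor it binds. TAL1, a basic helix-loop-helix factor, joins GATA factors through the bridging protein LMO2 and LDB1 in a complex that occupies erythroid genes. KLF1 is the zinc-finger factor that switches on adult beta-globin and much of the red cell programme, *Epor* encodes the erythropoietin receptor that keeps erythroid progenitors alive, and GFI1B is a repressor needed in both lineages. NFE2 is the large subunit of a factor needed for platelet release, and FLI1 is an Ets-family factor that favours the megakaryocyte over the erythroid fate. Myeloid factors such as PU.1 (*Spi1*) and GATA1 oppose each other, and leukaemia in this model is myeloid.

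The promoters of the 4 genes whose level was called higher in MEP than in CMP are shown. Each window runs from 250 bases before to 50 bases after the RefSeq start (GRCm38.p6), is printed 5′ to 3′ on the strand of the gene, and has in capitals every match to a GATA motif (AGATAA and its variant AGATAG, or TGATAA and its variant TGATAG) or to CCNCNCCC, the CACCC-box pattern of KLF1, on either strand. The windows lie at chrX:7967861-7968160 on the - strand, chr8:84901732-84902031 on the + strand, chr9:21963527-21963826 on the - strand and chr2:28621933-28622232 on the - strand.
Gata1: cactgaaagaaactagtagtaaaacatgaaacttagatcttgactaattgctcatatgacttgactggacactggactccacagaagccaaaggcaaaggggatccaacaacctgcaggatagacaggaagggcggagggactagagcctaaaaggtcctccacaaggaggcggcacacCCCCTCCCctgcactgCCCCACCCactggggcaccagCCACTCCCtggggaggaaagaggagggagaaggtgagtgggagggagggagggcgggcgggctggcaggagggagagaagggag
Klf1: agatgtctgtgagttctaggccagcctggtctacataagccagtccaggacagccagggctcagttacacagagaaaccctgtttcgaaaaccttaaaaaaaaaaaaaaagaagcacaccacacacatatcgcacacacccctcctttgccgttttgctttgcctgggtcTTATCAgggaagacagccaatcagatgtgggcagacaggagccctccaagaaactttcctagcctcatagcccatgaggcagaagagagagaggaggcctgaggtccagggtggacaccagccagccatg
Epor: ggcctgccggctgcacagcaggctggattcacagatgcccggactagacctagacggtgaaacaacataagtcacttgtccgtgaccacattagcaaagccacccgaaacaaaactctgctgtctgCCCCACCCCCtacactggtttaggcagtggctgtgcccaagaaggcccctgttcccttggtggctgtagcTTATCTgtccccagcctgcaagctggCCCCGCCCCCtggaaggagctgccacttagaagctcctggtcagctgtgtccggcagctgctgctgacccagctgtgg
Gfi1b: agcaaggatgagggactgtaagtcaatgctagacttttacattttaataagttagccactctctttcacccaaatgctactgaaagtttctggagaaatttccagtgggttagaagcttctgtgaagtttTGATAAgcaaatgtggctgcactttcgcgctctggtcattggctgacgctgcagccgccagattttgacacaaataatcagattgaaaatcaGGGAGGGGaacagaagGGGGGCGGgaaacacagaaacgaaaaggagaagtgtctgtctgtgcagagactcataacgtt
The *Klf1* window held a GATA match at positions -80 to -75 from the start, that of *Epor* at -54 to -49 and that of *Gfi1b* at -120 to -115, whereas the *Gata1* window held 0 GATA matches and 3 CACCC-box matches. *Epor* had 4 CACCC-box matches, which overlap in pairs, *Gfi1b* 2 and *Klf1* 0. Each window occurs without a mismatch in NCBIM37, the build of the expression table, at chrX:7544987-7545286, chr8:87425631-87425930, chr9:21767971-21768270 and chr2:28477453-28477752. The RefSeq starts of *Epor* and *Gfi1b* coincide with the GENCODE gene starts, that of *Klf1* lies 54 bases downstream, and that of *Gata1* lies 10161 bases downstream of the more distal start that GENCODE gives.

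RefSeq windows were matched for 6 of the 9 genes, 7 windows in all, since *Tal1* has a pair of starts. GATA motifs were in 4 of the 7 windows and in 29.8% of all 32851 promoter windows, and the CACCC box in 5 of 7 and 49.5%. The E-box CANNTG, the pattern bound by TAL1 with its partners, was in 5 of 7 and 72.3%. The NFE2 pattern (GCTGAGTCA or GCTGACTCA) was in 0 of 7 and 0.822%, and the Ets pattern CCGGAAGT in 0 of 7 and 3.89%. The *Zfpm1* window held 4 CACCC-box matches and no GATA motif. The upstream *Tal1* window held a GATA match at -205 to -200 and the downstream one 4 CACCC-box matches. These matches describe letters in short windows.

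In NCBIM37, *Gata1* lies on chromosome X at 7536386-7555197, *Klf1* on chromosome 8 at 87425827-87429194, *Epor* on chromosome 9 at 21763343-21768020, *Zfpm1* on chromosome 8 at 124806039-124861146 and *Tal1* on chromosome 4 at 114729031-114744360. *Lmo2* lies on chromosome 2 at 103798143-103822035, *Nfe2* on chromosome 15 at 103078643-103088834, *Gfi1b* on chromosome 2 at 28464970-28477502 and *Fli1* on chromosome 9 at 32229793-32348974. All are annotated as protein coding, and no exon of any of them overlaps an exon of another gene. Levels are FPKM, fragments scaled by transcript length and by library size, so they can be compared between genes.

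Across the 49 libraries the summed FPKM ranged from 694414 to 955433 and the genes above 0 from 15282 to 17852. Read totals were not used here. Depth relative to the median library, estimated from the steps between low values, ran from 0.483 to 1.526, so a value near 0 in a shallow library is the less certain, and no counting interval was computed. The sorting antigens followed the labels in part: *Cd34* averaged 12.6 FPKM ± 3.84 (SD, n = 5) in LT-HSC and 79.6 ± 28.9 (SD, n = 5) in ST-HSC, *Fcgr3* averaged 155 in GMP against 5.5 in CMP, and MEP held 2.19 FPKM of *Cd34* and 92.7 of *Kit*. *Fcgr3* was also at 25.82 in LT-HSC and 17.95 in ST-HSC. *Slamf1*, which encodes CD150, averaged 3.438 in CMP against 0.17 in MPP and 0.09 in GMP, although the study's methods give all 3 as CD150-negative. Some LT-HSC and ST-HSC libraries stood apart. The summed level of 7 mature red cell markers (globins, *Alas2* and *Slc4a1* among them) was 80230 and 42400 FPKM in LT-HSC replicates 4 and 5, 43220 in ST-HSC replicate 4, and 6533 and 7050 in ST-HSC replicates 2 and 5, while the other 5 libraries of these populations held from 99.67 to 1478. The 13 granulocyte markers summed to 75190, 30370 and 44230 in LT-HSC replicates 4 and 5 and ST-HSC replicate 4. Results that rest on these libraries are given with and without them, as alternatives chosen after seeing the data.

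The regulators fell into sets by their levels. *Gata1*, *Klf1*, *Epor*, *Zfpm1*, *Tal1* and *Gfi1b* were each highest on average in MEP, were lower in GMP than in the other normal populations, and were below 5 FPKM in all leukaemias, except for *Gfi1b* in 1 sample. *Lmo2*, *Nfe2* and *Fli1* were expressed in all 49 samples, with lowest values of 86.67, 31.58 and 14.83 FPKM.

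**Figure D1:**
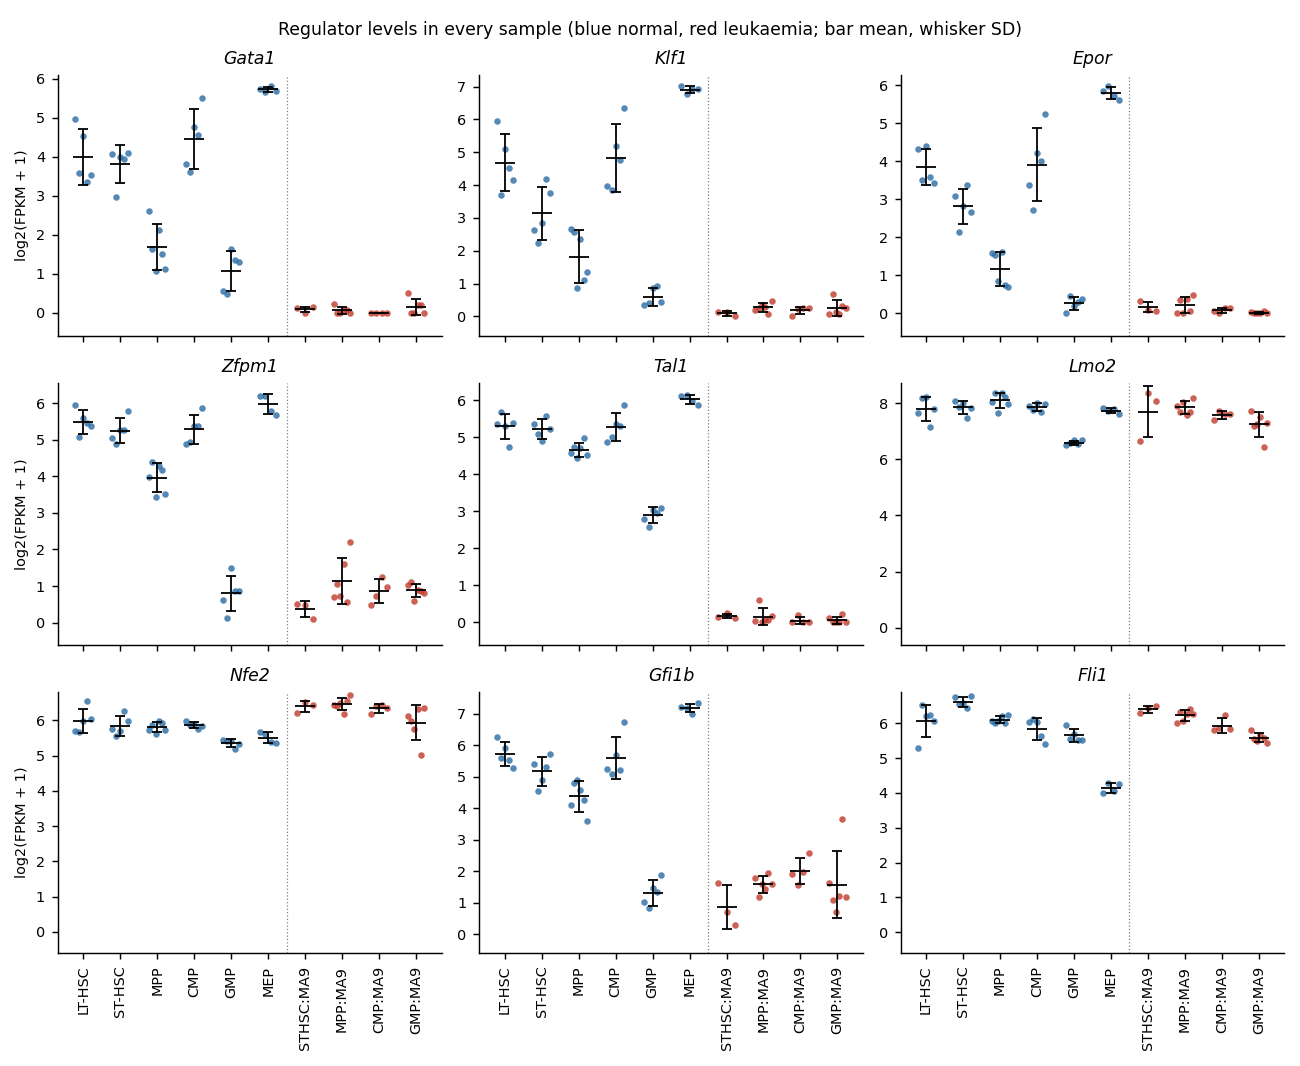
Levels of the 9 regulators in each of the 49 samples, as log2(FPKM + 1) on the vertical axis, by group on the horizontal axis (blue points normal populations, red points leukaemias, black bar mean, whisker SD). *Gata1*, *Klf1*, *Epor* and *Tal1* stay below 1 FPKM in all 19 leukaemias, whereas *Lmo2*, *Nfe2* and *Fli1* do not drop below 14.83 FPKM in any sample.

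*Gata1* measured 52.76, 49.45, 55.27 and 50.59 FPKM in the 4 MEP samples. It was at 12.95, 11.18, 26.04, 22.38 and 44.52 in CMP, at 30.21, 10.92, 22.08, 9.12 and 10.49 in LT-HSC, and at 15.71, 6.77, 14.89, 14.45 and 16.18 in ST-HSC. Every MEP sample lay above every CMP sample, and the ranges of CMP, LT-HSC and ST-HSC overlapped. In MPP the lowest, median and highest values were 1.09, 1.97 and 5.07, and in GMP the values were 0.48, 0.40, 2.10, 1.55 and 1.45, so that MPP and GMP overlapped and both lay below all ST-HSC samples. In the leukaemias *Gata1* was listed at 0 in 11 of 19 samples, among them all 4 CMP:MA9, and its highest value was 0.41 in GMP:MA9 replicate 1.

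*Klf1*, whose product acts on the globin genes, had the same order of normal populations and a wider span. It was at 128.38, 107.89, 120.06 and 120.94 FPKM in MEP, at 14.59, 13.37, 35.34, 26.38 and 80.79 in CMP and at 61.26, 12.06, 33.15, 21.70 and 16.64 in LT-HSC. MEP stood clear of CMP, whose samples differed among themselves more than those of MEP did. ST-HSC held 5.21, 3.74, 6.21, 17.36 and 12.59, MPP from 0.83 to 5.38, and GMP from 0.28 to 0.90. All 19 leukaemias were below 1 FPKM, with a highest value of 0.61.

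*Epor* was at 56.99, 62.18, 51.99 and 47.72 FPKM in MEP, at 9.33, 5.60, 17.66, 15.04 and 37.07 in CMP and at 19.17, 10.30, 20.25, 11 and 9.71 in LT-HSC. Of the 9 neighbouring pairs in its order of group means 5 overlapped, the fewest of any of the 9 genes: MEP lay above CMP, LT-HSC above ST-HSC (3.38 to 9.33), ST-HSC above MPP (0.62 to 2.04) and MPP above GMP (0 to 0.36). The leukaemias were listed at 0 in 7 samples and reached 0.39 FPKM.

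The cofactor and complex genes were more even among stem cells. *Zfpm1* averaged 62.3 FPKM ± 11.9 (SD, n = 4) in MEP, 44.7 ± 10.4 (SD, n = 5) in LT-HSC, then 39.1 ± 11.5 (SD, n = 5) in CMP and lastly 37.9 ± 9.83 (SD, n = 5) in ST-HSC, and each neighbour in that order overlapped the next. MPP at 15.1 ± 4.21 (SD, n = 6) lay below all of these, and GMP spanned 0.10 to 1.81. *Tal1* averaged 64.0 ± 5.70 (SD, n = 4) in MEP and between 24.3 and 38.9 in LT-HSC, ST-HSC, MPP and CMP, and every MEP sample was above every sample of those 4 populations. GMP still held 4.99 to 7.55 FPKM of *Tal1*, and all 19 leukaemias lay below it, at 0 to 0.53.

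*Gfi1b* was at 146.73, 143.19, 127.31 and 161.71 FPKM in MEP and at 37.08, 32.91, 50.79, 36.17 and 105.83 in CMP. LT-HSC averaged 53.2 ± 14.7 (SD, n = 5), ST-HSC 36.5 ± 11.4 (SD, n = 5) and MPP 20.7 ± 6.83 (SD, n = 6), each overlapping the next. GMP held 0.78 to 2.70. *Gfi1b* was detected in all 19 leukaemias, from 0.22 to 4.98 FPKM except for GMP:MA9 replicate 5 at 11.65, and only 3 samples were below 1. That library also had the lowest *Lmo2* (86.67) and *Nfe2* (31.58) of all leukaemias, and its mature red cell markers summed to 152.8 FPKM against 25.14 to 60.89 in the other 5 GMP:MA9 samples.

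*Lmo2* had the highest levels of the 9 genes. It averaged 278 FPKM ± 50.3 (SD, n = 6) in MPP, followed by 233 ± 22.4 (SD, n = 5) in CMP, 232 ± 34.4 (SD, n = 5) in ST-HSC, 229 ± 64.3 (SD, n = 5) in LT-HSC and 212 ± 14.0 (SD, n = 4) in MEP, and the 5 GMP samples, at 95.6 ± 5.09 (SD, n = 5), were below all other normal samples. The leukaemias spanned the normal range: 232 ± 38.9 (SD, n = 6) in MPP:MA9, next 191 ± 16.8 (SD, n = 4) in CMP:MA9, 156 ± 41.9 (SD, n = 6) in GMP:MA9, and 100.16, 325.05 and 270.89 in STHSC:MA9. All 9 neighbours in the order of the 10 groups overlapped.

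The mean of *Nfe2* spanned the least among normal populations. It lay between 40.1 FPKM ± 2.87 (SD, n = 5) in GMP and 64.0 ± 17.1 (SD, n = 5) in LT-HSC. In leukaemias the means were 88.3 ± 10.9 (SD, n = 6) in MPP:MA9, 83.9 ± 9.38 (SD, n = 3) in STHSC:MA9, 80.2 ± 6.60 (SD, n = 4) in CMP:MA9 and 62.8 ± 18.6 (SD, n = 6) in GMP:MA9. The lowest of the 13 samples in the first 3 of these groups was above every MPP, CMP, GMP and MEP sample.

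*Fli1* ran the other way. It was lowest in MEP, at 14.83, 18.53, 15.47 and 18.11 FPKM, and every other sample in the study was above these 4. It was highest in ST-HSC, at 106.60, 93.90, 94.17, 85.69 and 108.21. The 5 CMP samples, in the order of their numbers, held 64.19, 69.33, 64.60, 48.93 and 41.13. CMP replicate 5, with the lowest *Fli1* of its group, had the highest *Gata1*, *Klf1*, *Epor*, *Zfpm1*, *Tal1* and *Gfi1b*. LT-HSC replicate 1 likewise had the lowest *Fli1* of its group (38.34) and the highest *Gata1*, *Klf1*, *Zfpm1* and *Gfi1b*. Its mature red cell markers summed to 1478 FPKM, far under the 80230 of replicate 4, which had 9.12 FPKM of *Gata1*. Other samples went the other way. ST-HSC replicate 5 had the highest *Fli1* of its group (108.21) and also the highest *Gata1*, *Zfpm1* and *Gfi1b*. MEP replicate 2 had the highest *Fli1* of its group (18.53) and also the highest *Epor*, *Zfpm1* and *Tal1*.

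The differences between normal populations were tested to ask where along the hierarchy these regulators diverge. Tests used limma on log2(FPKM + 1) in a fit of all 30 normal samples, with p-values adjusted by Benjamini-Hochberg over the 12367 genes whose average reached 1 FPKM. All 9 regulators passed that filter. Genes are termed called when the adjusted p was under 0.05 and the log2 difference over 1. This scale understates the change of low genes, and in bulk samples fewer cells of a type cannot be told apart from less RNA per cell. The comparisons share populations, so their values are set side by side without an overlap.

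**Figure D2:**
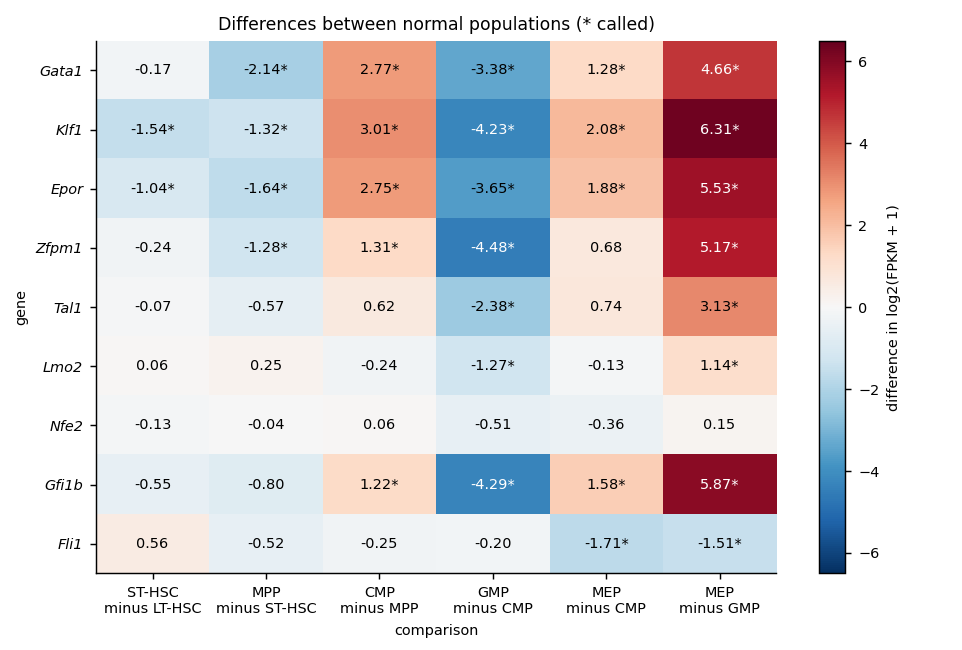
Differences in log2(FPKM + 1) between normal populations for the 9 regulators (rows) in 6 comparisons (columns), with red higher and blue lower in the population named first and an asterisk where the gene was called. The MEP minus GMP column holds 8 calls, from -1.51 for *Fli1* to 6.31 for *Klf1*.

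From LT-HSC to ST-HSC, *Klf1* and *Epor* fell, by 1.54 (SE 0.443, adjusted p = 0.026) and by 1.04 (SE 0.316, adjusted p = 0.0359) on the log2 scale. Lower calls made up 0.768% of all genes tested in this comparison. The other 7 regulators were not called. *Fli1* had a difference of 0.56 (adjusted p = 0.0262), under the fold threshold. These calls were the least secure: both were lost without LT-HSC replicate 1, without ST-HSC replicate 2 and without ST-HSC replicate 3, *Klf1* also without ST-HSC replicate 1, and *Epor* also without ST-HSC replicate 5 or LT-HSC replicate 3. Without the 3 libraries whose red cell markers exceeded 40000 FPKM both held, with differences of -2.05 and -1.41, and without the 5 above 5000 the difference of *Klf1* was -2.18 (adjusted p = 0.028) and that of *Epor* -1.135 (adjusted p = 0.118). ST-HSC replicate 4, with 43220 FPKM of red cell markers, also had the highest *Klf1* and *Epor* of its group.

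**Figure D3:**
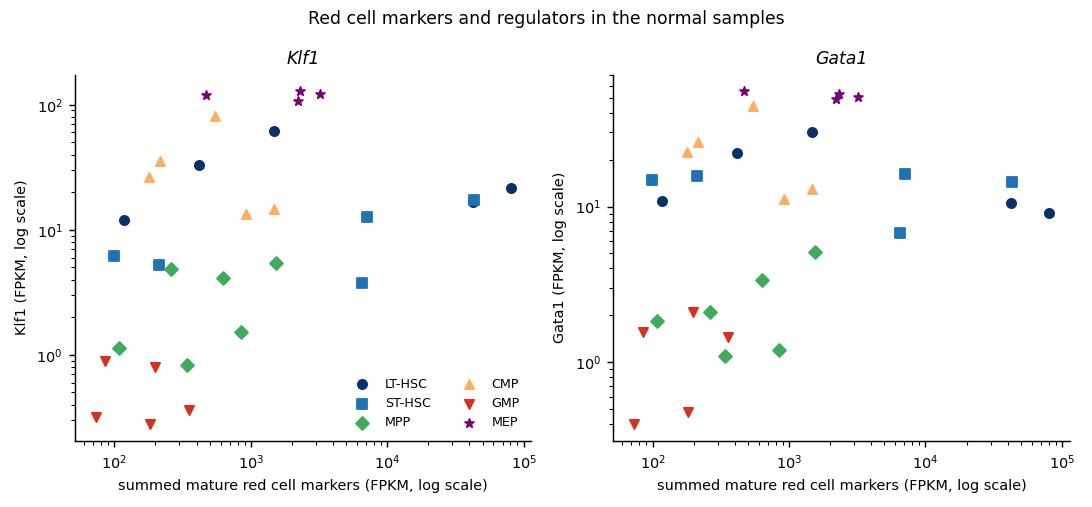
Summed FPKM of 7 mature red cell markers (horizontal axis, log scale) against *Klf1* and *Gata1* (vertical axes, FPKM, log scale) in the 30 normal samples, 1 point each, with a symbol and colour per population. The 3 libraries above 40000 FPKM of red cell markers hold 16.64 to 21.70 FPKM of *Klf1*, within the span of the other stem cell libraries and below all 4 MEP samples.

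From ST-HSC to MPP, *Gata1* fell by 2.14 (SE 0.333, adjusted p = 5.28e-05), *Epor* by 1.64 (SE 0.302, adjusted p = 0.000361), *Zfpm1* by 1.28 (SE 0.221, adjusted p = 0.000173) and *Klf1* by 1.32 (SE 0.424, adjusted p = 0.0283). These were 4 of 9 regulators, against 1.31% of all genes called lower. *Klf1* was not called without the libraries above 40000 FPKM of red cell markers (adjusted p = 0.0803) or above 5000 (-0.93, adjusted p = 0.261), without the filter on low values (adjusted p = 0.055), or with the replicate number as a block (adjusted p = 0.0692), nor without ST-HSC replicate 4 or 5 or MPP replicate 3, 5 or 6 left out singly. From MPP to CMP the same 4 were called higher, at 2.77 for *Gata1* (SE 0.333, adjusted p = 1.35e-06), 3.01 for *Klf1*, 2.75 for *Epor* and 1.31 for *Zfpm1*, and *Gfi1b* rose by 1.22 (SE 0.267, adjusted p = 0.00213). That is 5 of 9, against 1.49% of all genes called higher. Without CMP replicate 5 the difference of *Gfi1b* was 0.94, under the threshold.

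Between CMP and GMP, 7 regulators fell, against 7.94% of all genes. The largest of these differences were in *Zfpm1* (-4.48, SE 0.231, adjusted p = 1.14e-13), *Gfi1b* (-4.29), *Klf1* (-4.23), *Epor* (-3.65) and *Gata1* (-3.38). *Tal1* fell by 2.38 and *Lmo2* by 1.27, and *Lmo2* was just under the threshold (-0.995) after a correction for GC content and length. *Nfe2* (-0.51, adjusted p = 0.0034) and *Fli1* (-0.20, adjusted p = 0.358) were not called.

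MEP was compared with both myeloid progenitors. Against CMP, *Klf1* rose by 2.08 (SE 0.470, adjusted p = 0.00109), *Epor* by 1.88 (SE 0.335, adjusted p = 8.16e-05), *Gfi1b* by 1.58 (SE 0.296, adjusted p = 0.000146) and *Gata1* by 1.28 (SE 0.369, adjusted p = 0.00863), while 2.34% of all genes were called higher. *Fli1* fell by 1.71 (SE 0.169, adjusted p = 9.46e-09), where 9.49% of all genes were called lower. MEP replicates 3 and 4 held 78.24 and 106.8 FPKM of summed lymphoid markers, against 10.8 and 11.97 in replicates 2 and 1. Without the former pair, *Gata1* had a difference of 1.26 (adjusted p = 0.0622) and was not called, while the other 4 calls held. *Tal1* (0.75, adjusted p = 0.00194) and *Zfpm1* (0.68, adjusted p = 0.0336) were under the fold threshold, and *Lmo2* and *Nfe2* were not called. Against GMP, 7 regulators were higher, from *Lmo2* at 1.14 through *Tal1* at 3.13, *Gata1* at 4.66, *Zfpm1* at 5.17, *Epor* at 5.53 and *Gfi1b* at 5.87 to *Klf1* at 6.31 (SE 0.470, adjusted p = 1.07e-11), where 9.33% of all genes were higher. *Fli1* was again lower (-1.51, adjusted p = 2.07e-08), where 11.2% of all genes were. *Nfe2* differed by 0.15 (adjusted p = 0.398).

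The levels of the regulators across the 30 normal samples gave correlations that are reported as a description, since the samples share populations and library preparation. Pearson's r of log2(FPKM + 1) lay between 0.836 and 0.982 for the 15 pairs among *Gata1*, *Klf1*, *Epor*, *Zfpm1*, *Tal1* and *Gfi1b*. Within these, *Gata1*, *Klf1* and *Epor* were closest to each other (0.957 to 0.982), as were *Zfpm1*, *Tal1* and *Gfi1b* (0.960 to 0.968). *Lmo2* had r from 0.405 to 0.75 with these 6, *Nfe2* from 0.210 to 0.539, and *Fli1* from -0.537 to -0.108.

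**Figure D4:**
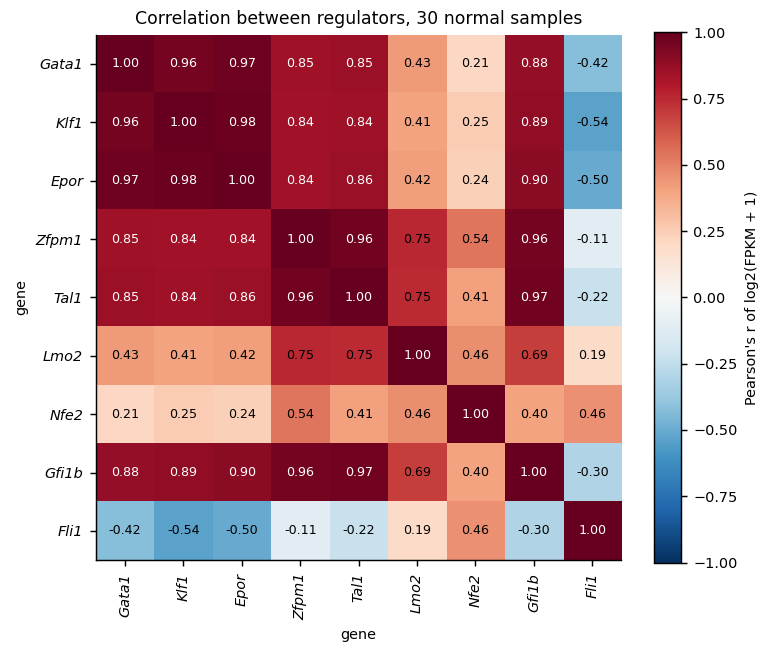
Pearson's r of log2(FPKM + 1) between each pair of the 9 regulators (rows and columns) over the 30 normal samples, on a colour scale from -1 (blue) to 1 (red). *Gata1*, *Klf1*, *Epor*, *Zfpm1*, *Tal1* and *Gfi1b* form a block with r of at least 0.836, and *Fli1* has negative r with all 6 of them.

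Among other genes, those whose level over all 49 samples was most like that of a regulator were *Mfsd2b*, *Samd14* and *Aqp1* for *Gata1* (r 0.982, 0.980 and 0.979), *Ermap*, *Aqp1* and *Slc38a5* for *Klf1* (0.989 to 0.986) and *Abcb4*, *Aqp1* and *Ermap* for *Epor* (0.990 to 0.986), out of 12156 genes. *Aqp1* encodes a water channel and *Ermap* an adhesion protein of the red cell membrane. *Zfpm1* was nearest to *Adcy6*, *F2r* and *Hemgn* (0.977 to 0.962), *Tal1* to *Lphn2*, *Trfr2* and *Slc43a1* (0.985 to 0.982), and *Gfi1b* to *Adcy6* and *Dmwd* (0.963 and 0.948). *Lmo2*, with *Smarcc2* at 0.766, *Nfe2*, with *Anxa11* at 0.857, and *Fli1*, with *Tnfsf14* at 0.852, had no neighbour as close. Over the 30 normal samples alone the nearest genes were *Samd14* for *Gata1* (0.977), *Blvrb* for *Klf1* (0.987), *Abcb4* for *Epor* (0.989), *Car2* for *Zfpm1* (0.968) and *Gfi1b* (0.974), *Sdsl* for *Tal1* (0.973), *Eif2c1* for *Lmo2* (0.948), *C030046I01Rik* for *Nfe2* (0.857) and *P2rx1* for *Fli1* (0.944).

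Each leukaemia was then compared with the normal population it was started from, in a fit of 4 leukaemia and 4 normal groups over 12600 genes, to ask how far the regulators of the starting cell were kept. *Gata1*, *Klf1*, *Epor*, *Zfpm1* and *Tal1* passed the filter on low values only through the normal groups, where they are high, so their falls are given as sizes and nothing is drawn from how many of them were called. The leukaemias also held more macrophage and monocyte marker RNA than any normal sample (at least 97.06 FPKM in sum, against at most 60.16), and their granulocyte markers summed to 1577 to 53300 FPKM. The part of such cells in the falls was not tested.

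**Figure D5:**
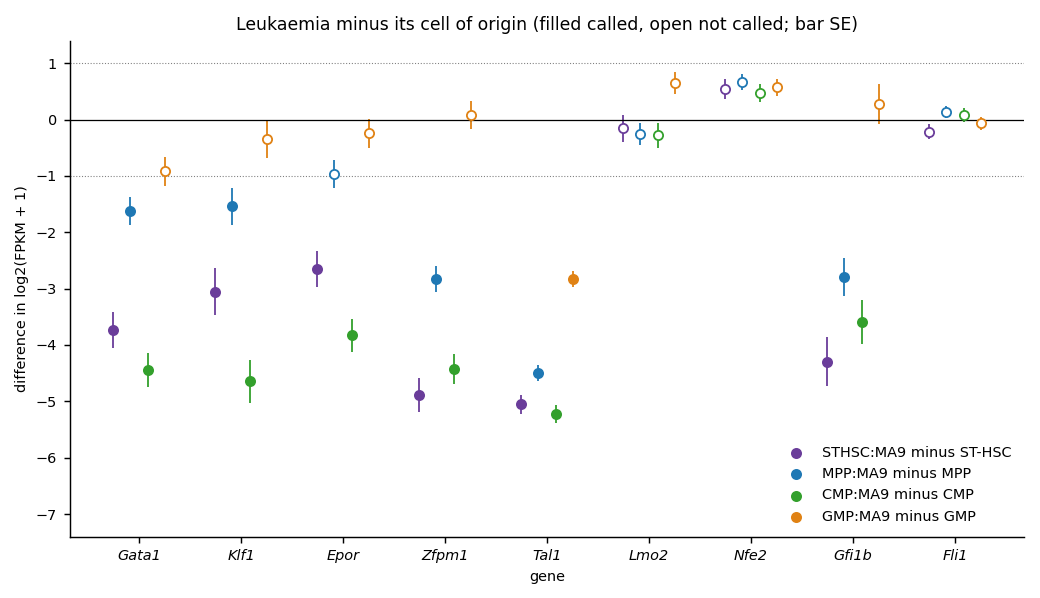
Difference in log2(FPKM + 1), leukaemia minus its cell of origin (vertical axis), for the 9 regulators (horizontal axis), coloured by origin, with bars of 1 SE, filled points where called and dotted lines at a difference of 1. *Tal1* lies at -2.84 in GMP:MA9 and at -5.23 in CMP:MA9, and *Gfi1b* at 0.27 in GMP:MA9 and at -3.59 in CMP:MA9. *Gata1*, *Klf1*, *Epor*, *Zfpm1* and *Tal1* passed the filter only through the normal groups, so nothing is drawn from how many were called.

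In STHSC:MA9, *Tal1* fell by 5.05 (adjusted p = 2.01e-23), *Zfpm1* by 4.89 (SE 0.294), *Gfi1b* by 4.30 (SE 0.429), *Gata1* by 3.73 (SE 0.320), *Klf1* by 3.05 (SE 0.410) and *Epor* by 2.65 (SE 0.313, adjusted p = 8.07e-09). Over all genes 11.9% were called lower. Of the 4 regulators that also passed the filter in the leukaemias alone (*Lmo2*, *Nfe2*, *Gfi1b* and *Fli1*), 1 was, *Gfi1b*. Leaving out the ST-HSC libraries rich in red cell markers kept all 6 calls, with *Klf1* then at -2.65 and *Gata1* at -3.94 when 3 were left out. *Lmo2* (-0.15, adjusted p = 0.624) and *Fli1* (-0.21, adjusted p = 0.197) were not called, and *Nfe2* had a difference of 0.55 (adjusted p = 0.0114), under the fold threshold.

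In MPP:MA9 the same 1 of those 4 was called lower, where 13.6% of all genes were. The falls were in *Tal1* at -4.50 (SE 0.135, adjusted p = 1.31e-25), *Zfpm1* at -2.83, *Gfi1b* at -2.79, *Gata1* at -1.62 and *Klf1* at -1.54 (SE 0.324, adjusted p = 9.58e-05). *Epor* had a difference of -0.96 (SE 0.248, adjusted p = 0.00106), just under the fold threshold. With a pseudocount of 0.1 its difference was -2.56 and it was called, as it also was when MPP replicate 3, 5 or 6 or MPP:MA9 replicate 6 was left out. In CMP:MA9 it was again *Gfi1b* of those 4, where 14.8% of all genes were called lower. The falls were by 5.23 for *Tal1* (SE 0.156, adjusted p = 6.6e-25), 4.64 for *Klf1*, 4.44 for *Gata1*, 4.43 for *Zfpm1* and 3.83 for *Epor*, and *Gfi1b* was called at -3.59 (SE 0.394, adjusted p = 1.12e-09).

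In GMP:MA9 only *Tal1* was called, with a fall of 2.84 (SE 0.141, adjusted p = 4.34e-18), where 8.87% of all genes were called lower. The GMP values of 5.90, 4.99, 7.24, 6.72 and 7.55 FPKM did not overlap the leukaemias, 4 of which were listed at 0 and the other 2 at 0.09 and 0.16. Of the 4 regulators that passed the filter in the leukaemias alone, 0 were called. *Gata1* had a difference of -0.92 (SE 0.265, adjusted p = 0.00337), which passed the threshold without GMP replicate 1 (-1.045) or GMP replicate 2 (-1.065). With a pseudocount of 0.1, *Gata1* was at -2.65 and was called, but at values this near 0 the size depends on the pseudocount. *Klf1* (-0.34, adjusted p = 0.399), *Epor* (-0.24), *Zfpm1* (0.08) and *Gfi1b* (0.27) started from GMP levels that were already under 3 FPKM.

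*Nfe2* had differences of 0.55, 0.66 (adjusted p = 0.000127), 0.47 (adjusted p = 0.0143) and 0.57 (adjusted p = 0.0013) in leukaemias from ST-HSC, MPP, CMP and GMP, all above 0 and all under the fold threshold. *Fli1* had differences between -0.21 and 0.13, with adjusted p from 0.197 to 0.642. *Lmo2* was at -0.15, -0.25 and -0.28 in the first 3 and at 0.65 (adjusted p = 0.00513) in GMP:MA9.

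Whether the change depended on the cell of origin was tested by an F test on the 4 changes. Of the 4 regulators that passed the filter in the leukaemias alone, *Gfi1b* and *Lmo2* were past the threshold, where 38% of all genes were. *Gata1*, *Klf1*, *Epor*, *Zfpm1* and *Tal1* were in this fit only through their levels in normal cells, and nothing is drawn from their tests. The adjusted p was under 0.05 for *Zfpm1* (adjusted p = 7.53e-13), *Tal1* (4.01e-11), *Gata1* (7.08e-09), *Epor* (8.42e-09), *Gfi1b* (6.39e-08), *Klf1* (1.37e-07) and *Lmo2* (0.0201). *Nfe2* (adjusted p = 0.875) and *Fli1* (0.292) were not past it. *Gata1*, *Klf1*, *Epor* and *Tal1* were below 1 FPKM in every leukaemia, so the order of their changes was largely set by the levels in the normal cells. CMP, with 23.4 FPKM of *Gata1* on average, had a difference of -4.44, and MPP, with 2.44, of -1.62.

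Between leukaemias of different origin, 4 regulators (*Lmo2*, *Nfe2*, *Gfi1b* and *Fli1*) passed the filter in a fit of the 19 leukaemias over 12128 genes, and 0 of the 4 were called in any of the 6 pairs. The share of all genes called in either direction was 2.88% for STHSC:MA9 against MPP:MA9, 0.363% against CMP:MA9 and 0.536% against GMP:MA9. It was 0.115% for MPP:MA9 against CMP:MA9, 2.23% for MPP:MA9 against GMP:MA9 and 0.206% for CMP:MA9 against GMP:MA9. An F test for any difference among the 4 origins was past the threshold for *Fli1* alone of the 4 (adjusted p = 0.000542), where 13.3% of all genes were. *Fli1* averaged 84.04 FPKM ± 5.79 (SD, n = 3) in STHSC:MA9, 74.4 ± 7.93 (SD, n = 6) in MPP:MA9, then 60.7 ± 9.23 (SD, n = 4) in CMP:MA9 and 47.2 ± 4.39 (SD, n = 6) in GMP:MA9. Every STHSC:MA9 and MPP:MA9 sample was above every GMP:MA9 sample, with differences of 0.82 (SE 0.124, adjusted p = 0.00166) and 0.64 (SE 0.101, adjusted p = 0.000421), both under the fold threshold. The normal populations had means in the same order, 97.7 in ST-HSC, 67.6 in MPP, 57.6 in CMP and 49.6 in GMP. *Nfe2* differed by 0.54 between MPP:MA9 and GMP:MA9 (adjusted p = 0.0432), and *Lmo2* by 0.61 (adjusted p = 0.0904).

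The wider programme was followed in lists of genes. Except for the erythroid and megakaryocyte lists in the leukaemias, their counts stand against the shares of all genes called. In normal cells these were 1.5% higher and 0.768% lower in ST-HSC against LT-HSC, 2.13% and 1.31% in MPP against ST-HSC, 1.49% and 2.83% in CMP against MPP, and 3.31% and 7.94% in GMP against CMP. MEP had 2.34% higher and 9.49% lower against CMP, and 9.33% and 11.2% against GMP. The leukaemias had 12.3% higher and 11.9% lower from ST-HSC, 13.5% and 13.6% from MPP, 13% and 14.8% from CMP, and 13.5% and 8.87% from GMP. Of 40 erythroid effector genes (globins, haem synthesis enzymes, red cell membrane proteins), 39 had a row and were tested in the normal fit. In MEP against CMP 24 were higher and 0 lower, with a median of 1.60 against -0.14 over all genes. *Cldn13*, a membrane protein of erythroid cells, rose by 2.60 (SE 0.586, adjusted p = 0.0011), and *Sphk1*, the sphingosine kinase, by 2.36. Against GMP 32 were higher and 0 lower (median 3.25), led by the carbonic anhydrases *Car1*, which rose by 8.97 (SE 0.764, adjusted p = 1.29e-10), and *Car2*, by 7.32. From LT-HSC to ST-HSC 11 fell and from ST-HSC to MPP 8 did, from MPP to CMP 16 rose, and from CMP to GMP 24 fell, each with 0 called the other way. Without the libraries above 5000 FPKM of red cell markers, 10 fell from LT-HSC to ST-HSC and 2 from ST-HSC to MPP. Without the MEP pair rich in lymphoid markers, 18 were higher than in CMP and 31 than in GMP. The list includes the 7 mature red cell markers, of which 0 were called from LT-HSC to ST-HSC, MPP and CMP or from CMP to MEP, and 3 were higher in MEP than in GMP.

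In the leukaemias 37 of the erythroid genes were tested, against 20 in the fit of the leukaemias alone. Genes that failed the filter there passed it here only through the normal groups, so nothing is drawn from the counts and medians. STHSC:MA9 had 27 lower and 0 higher (median -2.03), CMP:MA9 31 lower and 0 higher (median -2.67), MPP:MA9 11 lower and 1 higher (median -0.92), and GMP:MA9 6 lower and 1 higher (median -0.31), while the medians over all genes lay between -0.16 and 0.00. The mature red cell markers made up 7 of the 27 lower calls in STHSC:MA9 and 6 of the 31 in CMP:MA9. Without the ST-HSC libraries above 5000 FPKM of these markers, STHSC:MA9 had 14 lower and 1 higher of 34 tested, and 1 of the 7 markers was lower. *Car1* and *Car2* were the largest falls in all 4, at -5.77 and -7.04 in STHSC:MA9, -4.29 and -6.44 in MPP:MA9, -9.37 and -8.28 in CMP:MA9 and -2.46 and -2.25 in GMP:MA9. The single rise was that of *Slc25a38*, a mitochondrial glycine carrier of haem synthesis, by 1.72 in MPP:MA9 (adjusted p = 9.62e-09) and 1.89 in GMP:MA9 (adjusted p = 8.58e-09).

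Of 28 megakaryocyte effector genes, 23 were tested in normal cells, and they did not follow MEP. Against CMP 14 were lower in MEP and 0 higher (median -1.30), with *Pf4*, platelet factor 4, at -3.26 (SE 0.649, adjusted p = 0.000303) and *Plek*, the platelet protein pleckstrin, at -3.03. Against GMP 7 were higher, led by *Vamp5* (3.71) and the platelet glycoprotein gene *Gp5* (2.63), and 3 lower, led by the cyclooxygenase gene *Ptgs1* (-3.71) and the integrin gene *Itgb3* (-1.43). From LT-HSC to ST-HSC 4 rose and 0 fell, from ST-HSC to MPP 15 fell and 0 rose, from MPP to CMP 11 rose and 2 fell, and from CMP to GMP 16 fell and 1 rose.

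In the leukaemias 22 megakaryocyte genes were tested, against 15 in the fit of the 19 leukaemias alone, so again nothing is drawn from the counts and medians. STHSC:MA9 had 16 lower and 1 higher (median -2.75), and MPP:MA9 had 9 lower and 2 higher (median -0.65). CMP:MA9 had 13 lower and 1 higher (median -2.002), and GMP:MA9 had 3 lower and 5 higher (median -0.18). *Pf4* had differences of -8.27 in STHSC:MA9, -7.15 in CMP:MA9 and -3.39 in GMP:MA9, all called. *Itga2b*, the platelet integrin, fell by 3.09 in MPP:MA9 and 1.58 in GMP:MA9. The rises were in *Thbs1*, a thrombospondin that monocytes also make (2.69 in STHSC:MA9), *Itgb3* (1.42) and *Vwf* (1.18) in MPP:MA9, *Nbeal2* (1.11) in CMP:MA9, and, among 5 in GMP:MA9, *Plek* (2.37) and *Mef2c* (1.60), both also active in myeloid cells.

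The partner proteins of these regulators behaved less evenly. Of 35 genes for partners and co-regulators, all tested, 12 were lower and 1 higher in GMP than in CMP (median -0.61), and 13 were higher and 4 lower in MEP than in GMP (median 0.88), led by *Nfia* (5.21) and *Mllt3* (2.99) and, downwards, by *Cbfb* (-1.83) and *Lmo4* (-1.57). Between MEP and CMP 3 rose and 5 fell, among them *Nfia* (1.88), *Mllt3* (1.33) and, lower, the Ets-family genes *Etv6* (-1.76, adjusted p = 6.9e-10) and *Erg* (-1.68, adjusted p = 1.76e-07). In STHSC:MA9, MPP:MA9 and CMP:MA9, 11, 10 and 12 were lower and 3, 4 and 4 higher, and in GMP:MA9 2 were lower and 6 higher. *Bcl11a*, the repressor of fetal globin genes, fell in all 4, by 5.27, 4.44, 4.51 and 2.03. *Gata2*, the GATA factor of stem cells, fell by 4.24 in STHSC:MA9, 2.17 in MPP:MA9 and 2.70 in CMP:MA9. Rises included *Mafg*, a small Maf partner of NFE2, by 1.63 in STHSC:MA9 and 2.06 in MPP:MA9, *E2f2* by 2.66 in MPP:MA9 and 2.28 in CMP:MA9, and *Klf2* by 2.07, 2.69 and 2.89 in STHSC:MA9, CMP:MA9 and GMP:MA9. In GMP:MA9 *Mllt3*, the mouse gene of AF9, rose by 3.10 (adjusted p = 9.59e-08), and whether reads of the fusion were counted there was not tested, while the deacetylase gene *Hdac2* fell by 1.07.

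Of 7 opposing myeloid regulators, all tested, 4 were lower and 0 higher in MEP than in CMP (median -1.86), with *Irf8* at -3.83 (adjusted p = 4.11e-08) and *Spi1* at -3.08 (adjusted p = 3.34e-06), and 6 were lower than in GMP (median -3.56), with *Gfi1* at -4.31 and *Cebpe* at -3.99. All 7 were higher in STHSC:MA9 than in ST-HSC (median 2.23), 5 in MPP:MA9 (median 2.09) and 4 in CMP:MA9 (median 2.06), with 0 lower, and GMP:MA9 had 1 higher and 1 lower. *Id1* rose by 2.67 in STHSC:MA9 and 3.27 in MPP:MA9, and *Id2*, also an inhibitor of basic helix-loop-helix factors such as TAL1 and its partners, by 3.85 in MPP:MA9, 3.71 in CMP:MA9 and 3.13 in GMP:MA9. *Gfi1*, the paralogue of *Gfi1b*, rose by 2.48 in STHSC:MA9 and fell by 1.34 in GMP:MA9, and *Cebpe* rose by 3.38 in CMP:MA9. *Spi1* averaged 6.12 FPKM in MEP, 32.8 to 70.8 in the other normal populations, and 132 to 279 in the leukaemias. The macrophage and monocyte markers summed to 97.06 to 192.1 FPKM in the leukaemias and to 0.36 to 60.16 in the normal libraries, and their part in these results was not tested.

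The erythropoietin receptor signals through JAK2 and STAT5, and 19 of 21 genes of this pathway other than the receptor itself were tested in normal cells. MEP had 0 higher and 1 lower than CMP, the kinase gene *Pim1* (-1.60, adjusted p = 2.71e-05), and 3 higher and 2 lower than GMP, among them *Gab1* (1.71), *Socs2* (1.30), *Cbl* (-1.49) and *Lyn* (-1.07). *Jak2* averaged 14.9 to 23.6 FPKM in the 6 normal groups and 16.8 to 18.6 in the 4 leukaemia groups, where the receptor was between 0 and 0.39. In the leukaemias *Kit*, the stem cell factor receptor, was called lower in leukaemias of all 4 origins, at -5.48 from ST-HSC, -5.82 from MPP, -5.87 from CMP and -4.17 from GMP, as was the cyclin gene *Ccnd2*, at -3.33, -3.73, -3.86 and -3.48. By the study's methods the normal cells of origin were sorted as positive for the *Kit* product and the leukaemias by GFP. For *Kit*, the sort and a change in the leukaemia cannot be told apart. The kinase gene *Lyn* rose in all 4, by 1.97, 2.43, 2.43 and 2.22. *Ptpn6*, a phosphatase that acts on the receptor, rose by 2.03 in STHSC:MA9 and 1.79 in CMP:MA9, and *Ccnd3* by 1.92 in MPP:MA9 and 1.96 in GMP:MA9. Of the 18 genes tested, 5, 5, 5 and 4 were called higher and 6, 5, 5 and 2 lower in the 4 leukaemias.

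Markers of other cells were read beside the regulators. GATA1 and GFI1B also act in mast cells and eosinophils, and the 9 markers of mast cells, basophils and eosinophils summed to 299.2 to 926.6 FPKM in ST-HSC, 153.0 to 1624 in MPP and 390.1 to 1550 in GMP, but to 41.12 to 80.60 in CMP and 4.2 to 177.8 in MEP, where *Gata1* was highest. The 5 platelet markers summed to 300.7 to 1280 FPKM in ST-HSC and 135.0 to 316.6 in LT-HSC, against 19.82 to 49.18 in MEP. The 7 red cell markers summed to 18.69 to 25.95 FPKM in CMP:MA9, 25.14 to 152.8 in GMP:MA9, 37.49 to 224.0 in STHSC:MA9 and 24.01 to 1012 in MPP:MA9, and in MPP:MA9 replicate 6, the highest of these, *Klf1* was 0.38 FPKM and *Gata1* was listed at 0. Lymphoid markers summed to 10.80 to 106.8 FPKM in MEP, 16.10 to 30.69 in CMP and GMP, up to 163.1 in the other normal samples and 15.70 to 66.67 in leukaemias, and stem cell markers to 96.53 to 491.6 in LT-HSC and 50.71 to 212.0 in the leukaemias. Beyond the values without single libraries, the part of these cells in the results was not tested.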

How the data were processed

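RNA had been amplified (NuGEN Ovation, not strand-specific) and sequenced, and the authors deposited FPKM values estimated with RSEM on mm9, per the labels and the study's methods, rounded to 2 decimals. The aligner was not given in the sources used here. The table has 68 columns of samples. The names of 49 were those of samples in the labels, and the other 19 were left out. Groups and replicate numbers came from the labels, and each sample from an individual mouse according to the study. No pair of samples held identical values.

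Symbols and positions of 33068 genes came from GENCODE M1 on NCBIM37. Expression was compared on log2(FPKM + 1), with genes of mean at least 1 FPKM in a fit, by two-sided moderated tests in limma 3.58.1 (R 4.3.3; mean-variance trend on). Benjamini-Hochberg adjustment ran over all genes of the fit, and calls needed an adjusted p under 0.05 with a log2 difference beyond 1 in size. Separate fits held the 30 normal samples, the 4 leukaemia with the 4 origin groups, and the 19 leukaemias. Python 3.11.15 with pandas 2.3.3, numpy 2.4.6 and, for figures, matplotlib 3.10.9 did the rest. The calls were tested on simulated data: of 200 genes changed by 2 on the log2 scale, 99.5% were recovered in MEP against CMP (12125 genes), 97.5% in GMP:MA9 against GMP (12217 genes) and 94.5% in STHSC:MA9 against MPP:MA9 (11959 genes). False calls numbered 2, 0 and 9. The changed genes were drawn only from those of higher mean level, with noise independent between genes. These shares therefore do not apply to regulators near 0 FPKM.

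The regulators and the gene lists were chosen with earlier results of these data known. All 9 regulators were named. For each, the 3 genes of highest Pearson's r, and from each list the 2 largest rises and falls among called genes of the MEP and leukaemia comparisons, were named. A few of the genes this rule names are not reported here. *Spi1*, *Jak2* and marker values were added after their values were seen. Low values are multiples of the worth of 1 read, and 9069 such genes gave each library's relative depth (log2 residuals had an SD of 0.0135).

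Groups share replicate numbers. They were taken to pair samples where the deviations from the group means had r over 0.1 in every pair, which held only for LT-HSC and ST-HSC (r 0.142 to 0.683 in 5 pairs), and the fit with the number as a block gave the same 2 calls there. Alternatives were a pseudocount of 0.1, no filter, median-ratio scaling, only the groups compared, no fold threshold, a replicate block, a GC and length correction, both together, and leaving out each replicate. Leaving out libraries rich in red cell markers, or MEP libraries above 50 FPKM of lymphoid markers, was added after seeing the data.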

Additional observations from a re-analysis of the deposited data

Results flagged for a closer look

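The regulators were screened for a sample far from the others of its group, by Dixon's test in groups of 4 to 10 samples. Of 80 tests 10 were past the 95% limit. That limit assumes normally distributed values, for which chance gives about 1 in 20. The FPKM used here include low values with ties, so the count was not read as an excess. In normal cells these were *Gata1* in ST-HSC replicate 2, at 6.77 FPKM the lowest of its group, and *Gfi1b* in CMP replicate 5, at 105.83 the highest. CMP replicate 5 was the highest of its group for 6 of the 9 regulators.

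In leukaemias with detectable levels, *Gfi1b* stood at 11.65 FPKM in GMP:MA9 replicate 5, against 0.63 to 2.08 in the other 5 samples, and *Fli1* at 74.47 in CMP:MA9 replicate 3, against 55.26 to 57.20 in the other 3. The other 6 samples lay within values below 1 FPKM: *Gata1* at 0.16 in MPP:MA9 replicate 1 and 0.41 in GMP:MA9 replicate 1, *Klf1* at 0 in CMP:MA9 replicate 1 and 0.61 in GMP:MA9 replicate 2, and *Tal1* at 0.53 in MPP:MA9 replicate 2 and 0.14 in CMP:MA9 replicate 2.

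The F test in limma asked whether the change from cell of origin to leukaemia differed among the 4 origins. It was past the threshold for *Lmo2* (adjusted p = 0.0201) and *Gfi1b* (adjusted p = 6.39e-08), 2 of the 4 regulators that passed the filter in the leukaemias alone. Of all genes, 38% were past it. The adjusted p was also under 0.05 for *Gata1* (7.08e-09), *Klf1* (1.37e-07), *Epor* (8.42e-09), *Zfpm1* (7.53e-13) and *Tal1* (4.01e-11). *Gata1*, *Klf1*, *Epor*, *Zfpm1* and *Tal1* passed the filter of that fit only through the normal groups, and nothing is drawn from their tests. For *Lmo2* the difference was -0.15 in STHSC:MA9, -0.25 in MPP:MA9, -0.28 in CMP:MA9 and 0.65 in GMP:MA9, and GMP started from the lowest level of the 4 normal groups, 95.6 FPKM.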

How the results depend on the processing

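Counts of called regulators that moved by over 1.5 times were few. No difference with an adjusted p under 0.05 in the main limma fit changed sign, and the signs of the others were not followed. From LT-HSC to ST-HSC the count of 2 became 1 with a pseudocount of 0.1, 0 without the filter, 0 with only the groups compared and 1 without the libraries above 5000 FPKM of red cell markers, and leaving out single replicates gave 0 to 2. Without a fold threshold, MPP against ST-HSC had 7 in place of 4, GMP:MA9 against GMP 4 (2 higher, 2 lower) in place of 1, STHSC:MA9 against GMP:MA9 1 and MPP:MA9 against GMP:MA9 2 in place of 0. With a pseudocount of 0.1, GMP:MA9 against GMP had 4, all lower, and leaving out single replicates gave 1 to 2. *Gata1*, *Klf1*, *Epor*, *Zfpm1* and *Tal1* were in that fit only through the normal groups, so nothing is drawn from these counts. The F test among leukaemias gave 1 to 2 when single replicates were left out, with 2 without STHSC:MA9 replicate 1. The cause was not tested.

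The replicate block changed 1 call, that of *Klf1* between ST-HSC and MPP (-1.23, adjusted p = 0.0692), leaving 3 of 4. The block left the number of called regulators as it was in every other comparison. Outside LT-HSC and ST-HSC no comparison had r over 0.1 in every pair (-0.374 to 0.31). In GMP against CMP all 5 were above 0 (0.048 to 0.29) and 9 of 10 samples correlated best with their own number, and in CMP:MA9 against CMP all 4 were (0.048 to 0.107, 6 of 8), a hint from the data and not from the design. With the block and the GC and length correction together MPP against ST-HSC had 5 calls, GMP against CMP 6 and MEP against CMP 6, *Tal1* being added there at 1.002. The counts of all genes were less steady among leukaemias: 349 for STHSC:MA9 against MPP:MA9 and 1616 by the F test became 32 and 258 with the GC and length correction. Median-ratio scaling moved the median of all genes from 0.12 to 0.00 in ST-HSC against LT-HSC, from -0.20 to -0.01 in GMP against CMP, from -0.14 to 0 in MEP against CMP and from -0.16 to -0.01 in CMP:MA9 against CMP, and left every count of called regulators as it was. Depth limits what can be said of values under 1 FPKM, where a few reads decide the level.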
